A study of Mus musculus with 4 samples.

Results

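Endothelial cells (EC) line the aorta, and the 90 with the highest combined level of *Dcn*, *Sfrp2*, *Thbs1* and *Gdf6* are described here as panel-high EC. They were selected on these measured values, and 24 of them had a count of all 4 genes. From 991 deposited cells of 4 libraries, EC were taken as the 790 cells with more than 1200 genes, at least 3 counts of *Pecam1*, *Cdh5* and *Vwf* in sum and at most 2 counts of *Lum* and *Col1a1* in sum. Each EC was scored by the mean of ln(1 + count per 10000) over the 4 panel genes, and the 90 with the highest score, 11.4% of EC, were compared with the 700 other EC of the same libraries. A count is a number of transcripts tagged with a unique molecular identifier (UMI), and CPM is a count scaled so that every sum of cells has the same total.

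The cells came from adult C57BL/6J mice with both *Jag1* alleles flanked by loxP sites (*Jag1* fl/fl). In the 2 libraries labelled Jag1 ECKO, the *Cdh5* promoter drove a tamoxifen-activated Cre (CreERT2), which acts in endothelium and can act in any cell that uses that promoter. The 2 libraries labelled Jag1 ECWT came from mice without Cre, and mice of both labels received tamoxifen. Aortas were taken from the root to the iliac artery, digested with enzymes and sorted for live CD31+ CD45- cells into the wells of plates, and the labels do not say how many animals stand behind a library. *Jag1*, the targeted gene (chromosome 2, 137081456 to 137116644, GRCm38), went against the labels in panel-high EC, with 101 and 160 CPM (11 and 19 counts) in the libraries labelled Jag1 ECKO against 0 and 30.3 CPM (0 and 8 counts) in those labelled Jag1 ECWT. In other EC the levels were 172 and 64.6 CPM against 37.1 and 25.5 CPM. SORT-seq counts tags at the 3′ end of transcripts, and whether the deleted part of *Jag1* lies there was not examined, so these counts may not check the deletion. From these counts alone an exchange of the labels cannot be told apart from this. Measures of the deletion in other material were not analysed here. An exchange would turn the sign of every comparison between labels below. The wording "labelled" is therefore kept throughout.

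Each panel gene encodes a secreted protein. Decorin (*Dcn*) is a small leucine-rich proteoglycan that binds collagen fibrils and TGF-β, and fibroblasts are its best known source. *Sfrp2* encodes a secreted frizzled-related protein, which binds Wnt ligands outside the cell. Thrombospondin-1 (*Thbs1*) is a matricellular glycoprotein that can release active TGF-β and blocks angiogenesis through its receptor CD36, and *Gdf6* encodes a ligand of the BMP family, whose receptors signal through SMAD proteins. Aortic EC differ in these programmes along the vessel, and shear stress from flowing blood is known to set many of their genes.

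The score showed no gap at the limit of the selection. It ran from 3.70 in the highest cell to 1.33 in the lowest selected cell, and the first EC outside stood at 1.29. Within 10% of the lowest selected score there were 19 panel-high EC above it and 15 other EC below it. The median score was 1.76 in panel-high EC and 0.309 in other EC, of which 237 had no count of any panel gene. Panel-high EC are therefore described as the upper end of a range, and whether they form a cell type was not tested.

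**Figure D1:**
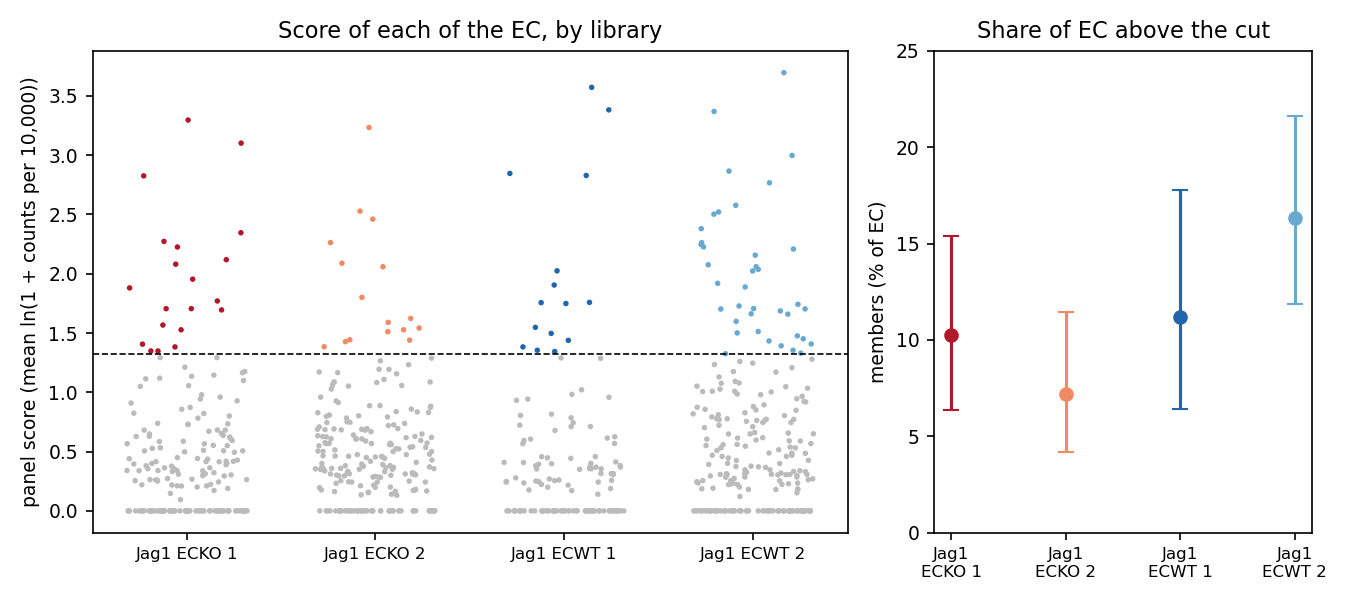
Left, panel score (mean of ln(1 + counts per 10000) over *Dcn*, *Sfrp2*, *Thbs1* and *Gdf6*) of each of the 790 EC by library, coloured where selected and grey elsewhere, with a dashed line at the lowest selected score, 1.33. Right, percent of EC selected in each library with exact binomial 95% intervals, from 7.21% to 16.3%; scores thin out across the line without a gap.

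The panel values below chose the cells and are given as description, with no test. *Dcn* (chromosome 10, 97479609 to 97518143, plus strand, GRCm38) was at 1716, 2121, 2348 and 2421 CPM in panel-high EC of Jag1 ECKO 1 and 2 and Jag1 ECWT 1 and 2, the order used in every sentence that follows, and at 232, 289, 147 and 259 CPM in other EC. *Sfrp2* (chromosome 3, 83766321 to 83774316, plus strand) was at 2000, 716, 1139 and 1093 CPM against 37.8, 16.0, 5.71 and 32.3 CPM. *Thbs1* (chromosome 2, 118111876 to 118127133, plus strand) was at 2771, 2374, 2639 and 1948 CPM against 271, 338, 193 and 227 CPM.
*Sfrp2* was highest in Jag1 ECKO 1, where 1 cell held 148 of the 218 counts. *Gdf6* (chromosome 4, 9844372 to 9862345, plus strand) was at 220.2, 219, 335 and 144 CPM against 7.08, 7.33, 5.71 and 2.55 CPM.

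The panel genes were not found in the same cells alike. All 90 panel-high EC had a *Thbs1* count, 85 had *Dcn*, 67 had *Sfrp2* and 33 had *Gdf6*. The most frequent combination, *Dcn* with *Sfrp2* and *Thbs1*, was held by 38 cells, and 24 cells had all 4 genes. *Dcn* and *Thbs1* alone made up 17 cells, 6 cells had *Dcn*, *Thbs1* and *Gdf6*, and the 5 cells without *Dcn* had *Sfrp2* and *Thbs1*, 3 of them with *Gdf6*. Of the other EC, 253 had a *Dcn* count and 310 a *Thbs1* count, but 79 had *Sfrp2* and 16 had *Gdf6*.

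Ordering the cells by score showed where each panel gene was held. *Sfrp2* was at 2830 CPM in ranks 1 to 30, 356 CPM in ranks 31 to 60 and 326 CPM in ranks 61 to 90, whereas *Thbs1* was at 3254, 2825 and 1418 CPM in the same ranks. *Dcn* was at 2993, 2245 and 994 CPM and at 1429 CPM in ranks 91 to 150. Single cells weigh on such levels: among other EC, 1 cell of Jag1 ECKO 2 held 88 of that library's 434 *Dcn* counts and 1 cell of Jag1 ECWT 1 held 52 of 103. Leaving a panel gene out of the score and taking 90 cells again shared 71 cells with the selection without *Dcn*, 74 without *Sfrp2*, 75 without *Thbs1* and 84 without *Gdf6*.

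Panel-high EC made up 10.3% of EC in Jag1 ECKO 1 (20 of 195, exact 95% interval 6.38 to 15.4%), 7.21% in Jag1 ECKO 2 (16 of 222, 4.18 to 11.4%), 11.2% in Jag1 ECWT 1 (15 of 134, 6.40 to 17.8%) and 16.3% in Jag1 ECWT 2 (39 of 239, 11.9 to 21.6%). The intervals cover counting error only. The mean was 8.73% ± 2.16 (SD, n = 2) under the Jag1 ECKO label and 13.8% ± 3.62 (SD, n = 2) under Jag1 ECWT, a difference of -5.02 percentage points (two-sided exact permutation p = 0.333, the smallest that 2 libraries against 2 allow). No library labelled Jag1 ECKO reached the share of those labelled Jag1 ECWT with 90 cells selected, but the order depended on the selection. With 60 or 120 cells selected, Jag1 ECKO 1 was above Jag1 ECWT 1 and the differences were -4.03 and -3.06 points (exact permutation p = 0.667 for both), and with *Sfrp2* left out of the score both libraries labelled Jag1 ECKO were above Jag1 ECWT 1 (-2.39 points, exact permutation p = 1). Leaving out each library in turn gave differences from -7.59 to -2.46 points, the latter without Jag1 ECWT 2.

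Panel-high EC held slightly more counts per cell than other EC, with library medians from 4792 to 7339 against 4012 to 6420, and their sums held 108981, 118798, 113280 and 264394 counts. The well barcodes were shared, 324 of 373 recurring in 2 or more libraries as plate positions, and no cells in a shared well of different libraries had identical counts. Median shares of mitochondrial counts were 4.10% and 4.21%, and of ribosomal protein counts 6.78% and 6.31%, in panel-high and other EC. The same selection of 90 cells on the panels of 5 other aortic EC groups shared 27 cells with the *Cxcl1* *Cd74* *Cxcl12* *Plxdc2* panel (30% of each set), 16 with the *Slc26a4* *Pla2g5* *Pcolce2* panel, 4 with the *Lyve1* panel, 3 with the *Klk10* panel and 0 with the *Vcan* panel.

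The identity of the cells was read from markers. The gate itself asked for endothelial counts, and *Pecam1* was at 3575 to 4267 CPM in panel-high EC and 4784 to 5170 CPM in other EC, *Cdh5* at 333 to 565 and 328 to 476 CPM, and *Vwf* at 1148 to 1881 and 1584 to 2033 CPM. Leukocyte markers were near absent, with 7 of 13 at 0 and a summed level of 0 to 18.9 CPM. Fibroblast markers were mixed. The gate itself limited *Lum* and *Col1a1*, which had 7 and 3 counts in the 90 cells, so their low level is no evidence on identity. Of the markers it did not limit, *Dpt* had 2 counts, *Pdgfra* 1, *Clec3b* 1 and *Mfap4* 0, whereas *Mfap5* had 141 counts in 62.2% of panel-high EC (59.4% of other EC). *Pi16* was found in 14.4% of panel-high and 19.7% of other EC, *Pcolce* in 20% and 8.57%, and *Pamr1* in 5.56% and 0.429%, all before thinning. Of smooth muscle markers, *Cnn1* was at 0, *Des* had 1 count and *Myh11* 18 counts, the last at a level close to that of other EC (log2 difference -0.45 ± 0.43 SE, adjusted p = 0.801).

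Some markers on these lists were higher. Of 7 fibroblast markers with enough counts for the test below, *Col1a2*, *Col3a1* and *Gsn* rose and *Ly6c1* fell, and of 9 smooth muscle markers 2 rose and none fell (median log2 difference -0.12). The call of *Gsn* was lost without Jag1 ECWT 1 (adjusted p = 0.143) or Jag1 ECWT 2 (adjusted p = 0.0829), and that of *Ly6c1* without Jag1 ECKO 1 (adjusted p = 0.121) or Jag1 ECWT 2 (adjusted p = 0.274). Over the whole fibroblast list without panel and gate genes, but with *Col1a2* and *Col3a1*, the summed level was 1298 to 2220.2 CPM in panel-high EC and 945 to 1236 CPM in other EC. Of these 20 markers, 12 were found in a larger share of panel-high EC after cells were thinned to 2500 counts (14 before). The smooth muscle list, with *Tagln* and *Acta2* included, summed to 753 to 1589 CPM against 347 to 1002 CPM, with 11 of 15 markers in the larger share (12 before). The 34 cells outside the EC gate, of which 33 had more than 2 counts of *Lum* and *Col1a1*, held *Dcn* at 6968 CPM, *Sfrp2* at 114 CPM, *Thbs1* at 331 CPM and 3 counts of *Gdf6*, where other EC held *Sfrp2* at 23.2 CPM over all libraries. Of these 34 cells, 14 scored at or above the lowest panel-high EC, and 30 of the 33 also met the endothelial limit of the gate. The part of such cells in the results was not tested beyond the subset that follows. No count of *Lum*, *Col1a1*, *Dpt*, *Pdgfra*, *Clec3b*, *Myh11*, *Cnn1* or *Des* was found in 63 of the 90 panel-high EC, a subset chosen after seeing the data and compared below with other EC that lacked the same markers.

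**Figure D2:**
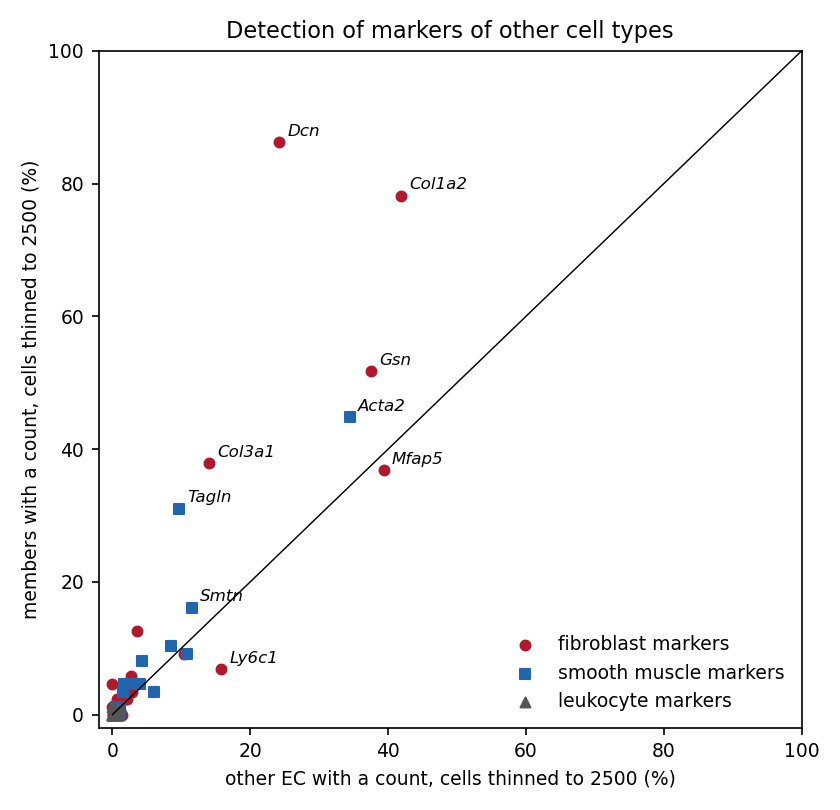
Percent of panel-high EC (vertical axis) and of other EC (horizontal axis) with a count of each fibroblast, smooth muscle or leukocyte marker, in cells thinned to 2500 counts; the line marks equal shares. *Col1a2*, *Col3a1*, *Tagln* and the panel gene *Dcn* lie well above the line, *Mfap5* lies near it, and most other markers lie near 0 in both.

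Counts were summed over panel-high EC and over other EC in each library, and the 8 sums were tested with edgeR with the library as a block, leaving out the panel and gate genes. The sums cannot tell fewer transcribing cells from fewer transcripts per cell, so shares of thinned cells with a count are given beside some genes. Of 6504 genes tested, 133 were higher in panel-high EC (2.04%) and 130 lower (2%) at an adjusted p below 0.05, and 799 had an unadjusted p below 0.05. The direction was the same in all 4 libraries for 121 and 128 of them. Without each library in turn, 68 and 61 calls held in every fit. The panel was proposed from these same cells, so the comparison does not bear on whether such a group exists. The p-values rest on a spread between the 4 libraries that edgeR moderates with that of other genes. A gene can thus be called although its own libraries differ widely. Every value below is a log2 fold change of panel-high over other EC with its SE (n = 4 libraries) and the edgeR adjusted p over all genes tested, and the median over all genes was 0.01.

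**Figure D3:**
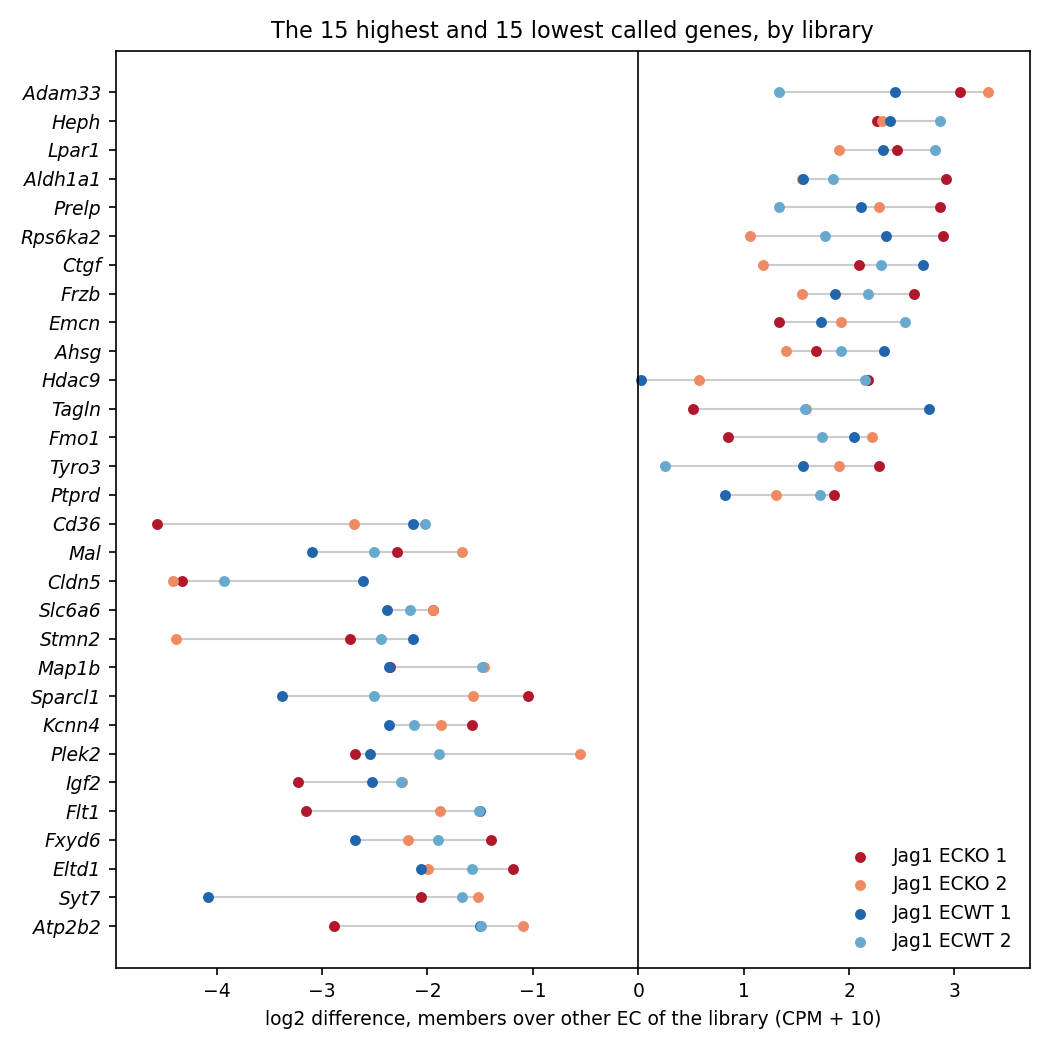
Log2 difference between panel-high and other EC within each library (CPM + 10 before the logarithm), for the 15 called genes with the highest and the 15 with the lowest fold change; points are libraries and grey lines their range. Genes were chosen among calls with the same direction in all 4 libraries, so all points of the upper genes lie right of 0 and all points of the lower genes left of it.

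The largest rise was in *Adam33*, a metalloprotease of smooth muscle and fibroblasts, at 82.6, 143, 44.1 and 45.4 CPM in panel-high EC and 1.18, 5.33, 0 and 11.9 CPM in other EC (3.87 ± 0.52, adjusted p = 8.91e-07), and its value was 5.13 without Jag1 ECWT 2. *Heph*, a ferroxidase that oxidises iron for export, was at 128, 92.6, 79.4 and 155 CPM against 18.9, 10.7, 7.14 and 12.8 CPM (3.24 ± 0.35, adjusted p = 4.75e-09). *Lpar1*, a receptor for lysophosphatidic acid, was at 174, 159.9, 212 and 216 CPM against 23.6, 35.3, 34.3 and 22.1 CPM (2.77 ± 0.26, adjusted p = 2.94e-10).
*Adam33* and *Heph* passed the limit on low counts for testing through panel-high EC alone, so their separate ranges are no added support. They rested on 43 and 75 counts in panel-high EC. After thinning, *Lpar1* was found in 34.5% of panel-high EC and 7.0% of other EC, *Heph* in 25.3% and 2.83%. *Aldh1a1*, which makes retinoic acid, rose by 2.57 ± 0.39 (adjusted p = 9.61e-06) and *Fmo1*, a flavin monooxygenase, by 1.81 ± 0.18 (adjusted p = 1.73e-09). The kinase gene *Rps6ka2* (2.30 ± 0.29), the fetuin gene *Ahsg* (1.99 ± 0.22) and the receptor phosphatase gene *Ptprd* (1.79 ± 0.29) were also among the 15 largest rises, and *Hdac9* (1.97 ± 0.39) and *Tyro3* (1.81 ± 0.44) were too. *Hdac9* was at 110, 33.7, 17.7 and 129 CPM against 16.5, 19.3, 17.1 and 21.3 CPM, so that it hardly differed in Jag1 ECWT 1. The call of *Tyro3* was lost without Jag1 ECKO 1 (1.44, adjusted p = 0.0879) and without Jag1 ECKO 2 (1.55, adjusted p = 0.0938), its value was 2.67 without Jag1 ECWT 2, and *Hdac9* was not tested without Jag1 ECWT 2.

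Wnt ligands reach frizzled receptors only when extracellular inhibitors leave them free. Of 4 secreted Wnt inhibitors tested besides the panel gene *Sfrp2*, 2 rose and none fell. *Frzb*, a close relative of *Sfrp2*, was at 762, 505, 344 and 567 CPM in panel-high EC and 116, 165, 87.1 and 117 CPM in other EC. The lowest panel-high value was above the highest of other EC, a 4.51-fold difference (2.17 ± 0.16, adjusted p = 9.71e-13), and *Frzb* was found in 63.2% of thinned panel-high EC against 22.4% of other EC. *Sfrp1*, abundant in all EC here, was at 3358, 2803, 2754 and 4021 CPM against 2007, 2174, 2153 and 2629 CPM (0.54 ± 0.10, adjusted p = 1.32e-04), without overlap. *Dkk3* (-0.41 ± 0.44) and *Kremen1* (0.44 ± 0.53) were not called. None of 8 Wnt ligand and receptor genes was called, among them the receptors *Fzd4* (-0.24), *Fzd6* (0.09) and *Fzd8* (0.73). Of 3 Wnt target genes, *Ccnd1* alone was called (0.93 ± 0.27, adjusted p = 0.0378), with 91.8, 295, 265 and 45.4 CPM against 117, 88.6, 85.7 and 49.3 CPM. It was lower in panel-high EC in Jag1 ECKO 1 and Jag1 ECWT 2, and its call was lost without Jag1 ECKO 2 or without Jag1 ECWT 1 (0.55, adjusted p = 0.565, and 0.65, adjusted p = 0.417).

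Of the BMP and GDF ligands other than the panel gene *Gdf6*, *Bmp4* and *Bmp6* alone had enough counts to be tested, and both were called higher. *Bmp4*, which disturbed flow is known to induce in EC, was at 5019, 4242, 4979 and 4819 CPM in panel-high EC and 1542, 2274, 1688 and 1838 CPM in other EC, a 2.65-fold difference without overlap (1.41 ± 0.10, adjusted p = 9.51e-13). *Bmp6* was at 376, 50.5, 115 and 139.9 CPM against 97.9, 42.0, 78.5 and 77.4 CPM (1.09 ± 0.25, adjusted p = 0.00445). Its highest value came from Jag1 ECKO 1, without which the call was lost (0.66, adjusted p = 0.342).
Of 6 BMP receptor genes tested, 1 was called higher and 1 lower, and *Bmpr1a* (-0.31), *Acvr1* (0.50), *Acvrl1* (-0.07) and *Rgma* (0.13) were not called. Endoglin (*Eng*), a co-receptor for BMP9, rose by 0.77 ± 0.12 (adjusted p = 2.46e-05), while *Bmpr2*, the type 2 receptor mutated in pulmonary hypertension, fell by 0.57 ± 0.14 on the log2 scale (adjusted p = 0.00980), a call lost without Jag1 ECKO 1 (adjusted p = 0.0790) or Jag1 ECWT 1 (adjusted p = 0.0759). *Smad6*, an inhibitory SMAD that BMP signals switch on, was at 596, 286, 344 and 344 CPM against 157, 121, 154 and 183 CPM (1.32 ± 0.17, adjusted p = 3.21e-07), with every panel-high value above every other. *Id2*, a further BMP target, was called (0.66 ± 0.17, adjusted p = 0.0106) but not without Jag1 ECWT 2 (0.40, adjusted p = 0.526). The targets *Id1* (-0.96 ± 0.30, adjusted p = 0.0613) and *Id3* (0.23 ± 0.13) and the transducers *Smad1* (0.15 ± 0.37) and *Smad5* (-0.16 ± 0.39) did not pass. Among 4 antagonists *Fstl1* rose (0.59 ± 0.10, adjusted p = 2.65e-05), and *Crim1* (0.33 ± 0.13), *Twsg1* (0.53 ± 0.35) and *Nbl1* (-0.99 ± 0.47) were not called.

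YAP and TAZ are coactivators that reach the nucleus under mechanical strain and act through TEAD factors. Of 10 genes listed as their targets, 3 rose and none fell, and these 3 calls held without each library in turn. Connective tissue growth factor (*Ctgf*) was at 431, 126, 194 and 337 CPM against 93.2, 49.97, 21.4 and 60.4 CPM (2.28 ± 0.23, adjusted p = 9.45e-10). *Cyr61*, another matricellular CCN protein, was at 1642, 505, 998 and 1815 CPM against 628, 322, 407 and 551 CPM (1.34 ± 0.13, adjusted p = 4.20e-10). Jag1 ECKO 2 was lowest among panel-high sums for both, and its *Cyr61* level overlapped the other EC of further libraries though not its own. *Amotl2*, a regulator of the same pathway, rose by 0.98 ± 0.19 (adjusted p = 3.90e-04). Its call was lost with *Thbs1* left out of the score (adjusted p = 0.0554 by edgeR). *Lats2* (0.31), *Ajuba* (0.60), *Nt5e* (0.09) and *Dlc1* (-1.34) were not called. The 250 bases before the RefSeq start of *Cyr61* (listed there as *Ccn1*) and *Amotl2* are shown in GRCm38.p6 because these genes rose together, with matches to the TEAD core CATTCC in capitals, searched on both strands, and the same stretch of the panel gene *Sfrp2* is shown beside them.
Cyr61 (chr3:145649986-145650235, minus strand): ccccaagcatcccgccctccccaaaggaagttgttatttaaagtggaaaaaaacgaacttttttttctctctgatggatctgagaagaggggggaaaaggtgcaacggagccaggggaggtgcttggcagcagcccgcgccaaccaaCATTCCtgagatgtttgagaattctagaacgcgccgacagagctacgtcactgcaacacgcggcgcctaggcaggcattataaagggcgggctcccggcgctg
Amotl2 (chr9:102717554-102717803, plus strand): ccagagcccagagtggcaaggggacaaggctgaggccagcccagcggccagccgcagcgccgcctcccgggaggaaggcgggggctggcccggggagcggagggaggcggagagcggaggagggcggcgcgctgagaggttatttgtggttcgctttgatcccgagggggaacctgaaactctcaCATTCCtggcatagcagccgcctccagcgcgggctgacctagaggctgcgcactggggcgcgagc
Sfrp2 (chr3:83766071-83766320, plus strand): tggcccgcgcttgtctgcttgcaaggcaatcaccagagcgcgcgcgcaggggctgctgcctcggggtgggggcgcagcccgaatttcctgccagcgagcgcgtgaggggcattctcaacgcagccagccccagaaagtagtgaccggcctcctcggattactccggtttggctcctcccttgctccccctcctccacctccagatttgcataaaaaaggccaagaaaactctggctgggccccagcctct
The match lay 103 bases before the start in *Cyr61* and 65 bases before it in *Amotl2*, on the strand of the gene, and the *Sfrp2* stretch held no match. Such a match was found in 12.6% of all 32851 promoters of this length, in 10.2% of the promoters of genes tested, in 17.5% of those called higher (18 of 103 with an entry) and in 11.1% of those called lower (10 of 90). A match is a description of letters, and these shares were not tested. *Ctgf* was named only by its level.

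Fibrillar collagens give the arterial wall its tensile strength. Of 16 fibrillar collagen and collagen processing genes, 4 rose and none fell, 14 had a fold change above 0, and the median was 0.67. *Col1a2*, a chain of type I collagen, was at 771, 1002, 433 and 972 CPM against 278, 231, 249.9 and 389.6 CPM (1.48 ± 0.14, adjusted p = 4.92e-10), without overlap. *Col3a1* was at 248, 236, 44.1 and 458 CPM against 87.3, 72.0, 62.8 and 122 CPM (1.51 ± 0.23, adjusted p = 6.82e-06), so that Jag1 ECWT 1 went the other way. The collagen chaperone gene *Serpinh1* (0.88 ± 0.17) and the procollagen enhancer gene *Pcolce2* (0.78 ± 0.15) rose as well. *Col1a1*, the partner chain of *Col1a2*, was limited by the gate and had 3 counts. *Col1a2* and *Col3a1* are counted in the summed fibroblast level given above, so its rise is no separate observation. In the 63 panel-high EC without the 8 markers *Col1a2* stood at 1.28 (adjusted p = 1.90e-06) and *Col3a1* at 1.23 (adjusted p = 0.0127).

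Among small leucine-rich proteoglycans, the family of decorin, *Prelp* rose and the other 5 tested were not called. *Prelp* was at 321, 311, 194 and 129 CPM in panel-high EC and 35.4, 56.0, 37.1 and 45.1 CPM in other EC (2.37 ± 0.25, adjusted p = 2.36e-09), and biglycan (*Bgn*), the nearest relative of decorin, differed by 0.16 ± 0.09. Of 11 matricellular genes 4 rose and 3 fell. *Igfbp7* (1.46 ± 0.16), *Smoc1* (0.82 ± 0.11), *Fn1* (0.67 ± 0.11) and *Sparc* (0.57 ± 0.09) rose in all 4 libraries. *Mgp*, which inhibits calcification and BMP ligands, was at 2441, 1860.3, 2083 and 3135 CPM against 4256, 4203, 4577 and 5193 CPM (-0.93 ± 0.10, adjusted p = 3.19e-09), without overlap. *Sparcl1* fell as well, with 5 counts in all panel-high EC (-2.85 ± 0.55, adjusted p = 4.69e-04), and was at -4.67 without Jag1 ECKO 1, which held 4 of these counts. *Clu* fell by 0.32 ± 0.10 on the log2 scale (adjusted p = 0.0461) and lost its call without 3 of the libraries (adjusted p from 0.166 to 0.394).

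Of 9 genes listed as thrombospondins and their receptors, *Cd36*, *Lrp1* and *Sdc1* were called, and the other 6 genes tested were not. A sole *Cd36* count was found in panel-high EC, in Jag1 ECWT 1, against 361 counts in other EC at 227, 54.6, 72.8 and 30.6 CPM. The ratio of pooled CPM was 0.0193 (exact 95% counting interval 4.88e-04 to 0.108, adjusted p = 3.69e-07 by edgeR). This interval, like that of *Mal* below, covers counting error only. Most other EC had no *Cd36* count either: before thinning it was found in 7.57% of them and in 1.11% of panel-high EC. CD36 also takes up fatty acids and marks capillary endothelium, and *Fabp4*, an intracellular fatty acid carrier, fell by 1.42 ± 0.26 on the log2 scale (adjusted p = 1.80e-04). DESeq2 did not call *Fabp4*, nor did edgeR without the library as a block. The share of thinned cells with a *Fabp4* count was nearly the same, 10.3% of panel-high and 11.3% of other EC, and the level in Jag1 ECWT 1 was 97.1 against 114 CPM. *Cd47* (-0.19 ± 0.15), *Itgb1* (0.01 ± 0.11) and *Itgav* (0.22 ± 0.39) were not called. *Lrp1*, which clears thrombospondin, and *Sdc1*, a heparan sulphate proteoglycan, were called at 1.26 ± 0.36 (adjusted p = 0.0331) and -1.01 ± 0.30 (adjusted p = 0.0400), but neither call held without Jag1 ECKO 1 (0.74, adjusted p = 0.545, and -0.85, adjusted p = 0.188) or Jag1 ECKO 2 (1.11, adjusted p = 0.153, and -1.01, adjusted p = 0.107), and that of *Sdc1* was also lost without Jag1 ECWT 1 (-0.85, adjusted p = 0.199).

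**Figure D4:**
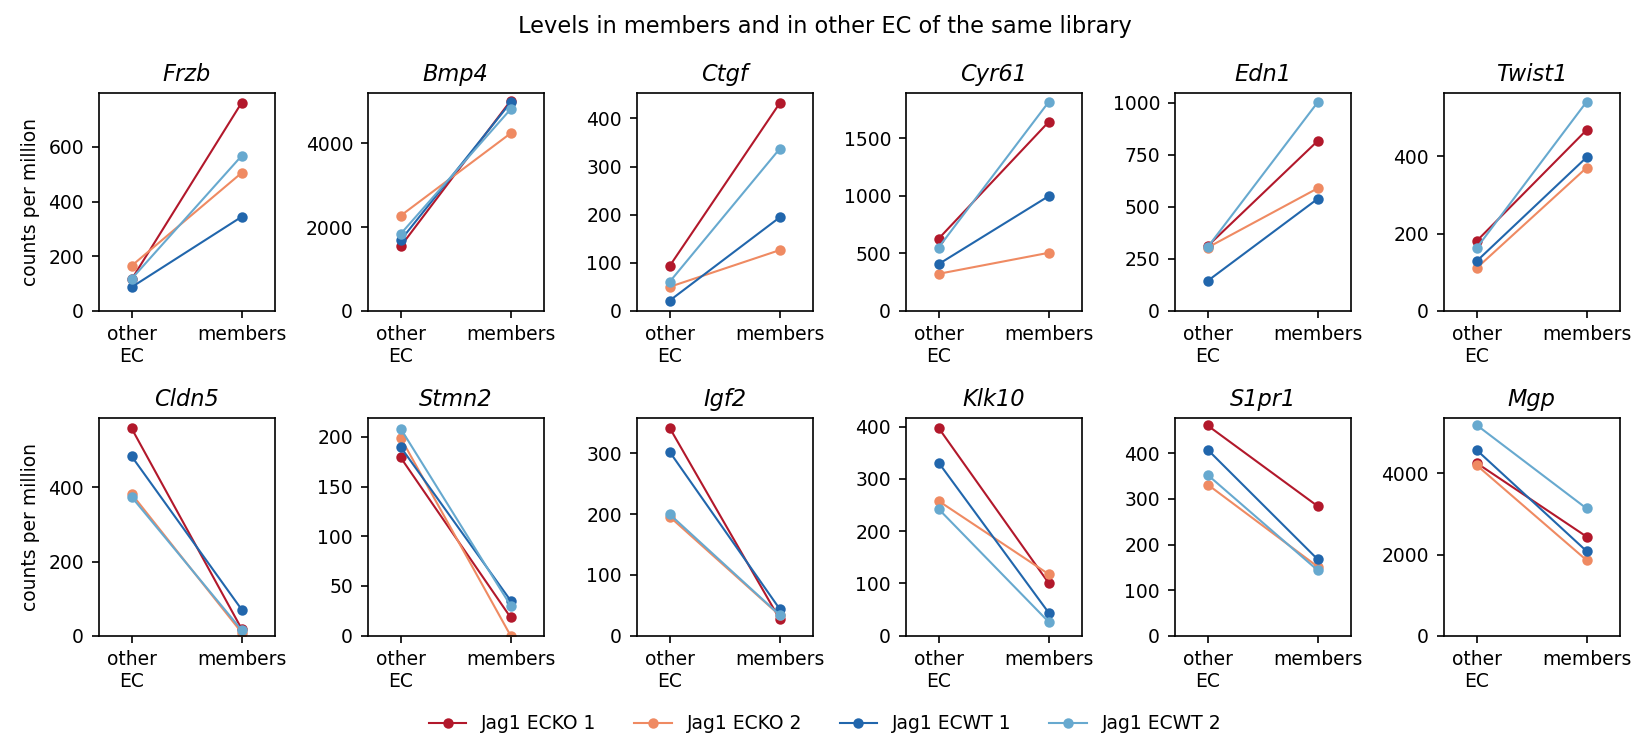
Level in CPM of 12 genes in other EC (left) and panel-high EC (right), each line a library, on axes that start at 0. *Frzb*, *Bmp4*, *Edn1* and *Twist1* were higher in panel-high EC with no overlap between the groups, and *Cldn5*, *Stmn2*, *Igf2*, *Klk10*, *S1pr1* and *Mgp* were lower with no overlap.

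The endothelial programme itself was altered in part. Of 15 endothelial markers tested, 2 were higher and 4 lower. *Cldn5*, the main claudin of endothelial tight junctions, was at 18.4, 8.42, 70.6 and 15.1 CPM in panel-high EC and 559, 382, 484 and 374 CPM in other EC, a 16.9-fold difference without overlap (-4.08 ± 0.27, adjusted p = 4.53e-14), and its value was -4.85 without Jag1 ECWT 1, the library with its highest panel-high level. After thinning, *Cldn5* was found in 2.30% of panel-high EC and 49.0% of other EC. *Emcn*, a sialomucin of veins and capillaries, went the opposite way, at 523, 530.3, 379.6 and 529.5 CPM against 202, 133, 107 and 83.4 CPM (2.01 ± 0.17, adjusted p = 1.93e-11). *Flt1*, a VEGF receptor, was nearly absent with 5 counts in all panel-high EC (-2.71 ± 0.52, adjusted p = 4.59e-04). *Tek* (-0.54 ± 0.13, adjusted p = 0.00630) and *Ptprb* (-0.34 ± 0.10, adjusted p = 0.0258) were lower by less, and both calls were lost without Jag1 ECWT 2 (adjusted p = 0.0520 and 0.0610); *Ptprb* also lost its call without Jag1 ECKO 2 (adjusted p = 0.311) or Jag1 ECWT 1 (adjusted p = 0.0660). *Tie1* (-0.08 ± 0.11), *Esam* (-0.04 ± 0.13), *Cd34* (-0.10 ± 0.13) and *Lmo2* (-0.06 ± 0.12) were not called.

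Arterial markers were divided too, with 3 of 13 higher and 1 lower. *Nrp1*, a co-receptor for VEGF and semaphorins, was at 2661, 1809.8, 2604 and 2409 CPM against 1041, 1081, 1312 and 1145 CPM, without overlap (1.06 ± 0.10, adjusted p = 6.31e-10). *Efnb2*, the ephrin of arterial EC, rose by 0.79 ± 0.13 (adjusted p = 2.38e-05) and *Fbln5*, which assembles elastic fibres, by 0.90 ± 0.13 (adjusted p = 6.71e-06). *Gkn3*, a marker of arterial EC in mice, fell by 1.02 ± 0.20 on the log2 scale (adjusted p = 4.07e-04). Of 4 endocardial and valve genes and 11 positional transcription factors none was called.

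Genes listed as part of the mesenchymal transition rose in 6 of 13 cases and fell in none, with a median of 0.63. *Twist1*, a transcription factor of mesenchyme, was at 468, 370.4, 397 and 541 CPM in panel-high EC and 181, 111, 128 and 162 CPM in other EC, without overlap (1.65 ± 0.15, adjusted p = 2.62e-10). *Tagln*, an actin-binding protein of smooth muscle, was at 138, 177, 618 and 223 CPM against 93.2, 52.0, 82.8 and 68.1 CPM (1.87 ± 0.24, adjusted p = 2.74e-07), and *Acta2* at 707, 479.8, 679.7 and 348 CPM against 419, 382, 123 and 198 CPM (1.04 ± 0.19, adjusted p = 1.32e-04). The *Acta2* groups overlapped across libraries, and without Jag1 ECWT 1 its value was 0.65 (adjusted p = 0.00567). The remaining called genes are *Fn1*, *Col1a2* and *Col3a1*. *Snai2* (0.63), *Zeb1* (-0.33), *Zeb2* (0.25) and *Vim* (-0.17) were not called. *Tagln* and *Acta2* are counted in the summed smooth muscle level given above, so its rise is no separate observation. Of the 9 genes of that list tested, 7 were not called and the median was -0.12. The part of smooth muscle transcripts in the levels of both genes was not tested beyond leaving out all EC with any of the 8 markers. After that *Tagln* stood at 2.41 (adjusted p = 2.74e-07) and *Acta2* at 1.31 (adjusted p = 3.65e-04).

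Flow-induced protective genes are those that steady shear raises in EC, and 5 of 9 were lower and none higher (median -0.52). *Klk10*, a secreted serine protease of this list, was at 101, 118, 44.1 and 26.5 CPM in panel-high EC and 398, 258, 331 and 242 CPM in other EC, without overlap (-2.19 ± 0.24, adjusted p = 1.06e-08). *S1pr1*, a receptor for sphingosine 1-phosphate, was at 284, 152, 168 and 144 CPM against 461, 332, 408 and 353 CPM (-1.08 ± 0.17, adjusted p = 1.27e-05). *Klf4* (-0.77 ± 0.17, adjusted p = 0.00211) lost its call without Jag1 ECWT 2 (-0.63, adjusted p = 0.0933), and *Nos3*, the endothelial nitric oxide synthase (-0.52 ± 0.14, adjusted p = 0.0277), lost it without Jag1 ECKO 1 (adjusted p = 0.192), Jag1 ECWT 1 (adjusted p = 0.0848) or Jag1 ECWT 2 (adjusted p = 0.155). The last of the 5 is *Tek*, given above. *Klf2*, the best known factor of this response, was at -0.25 and was not called, nor was *Thbd* (0.04).

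Genes listed as induced by disturbed flow or inflammation rose in 5 of 10 cases and fell in 1. Besides *Bmp4*, endothelin-1 (*Edn1*), a vasoconstrictor peptide, was at 817, 589, 538 and 1002 CPM against 311, 304, 144 and 306 CPM, a 2.83-fold difference without overlap (adjusted p = 2.62e-10). The chemokine gene *Cxcl12* was at 220.2, 337, 477 and 208 CPM against 99.1, 81.3, 134 and 79.96 CPM (1.64 ± 0.19, adjusted p = 2.46e-08), and P-selectin (*Selp*) rose by 0.61 ± 0.13 (adjusted p = 0.00149). *Cxcl1* was called (1.59 ± 0.41, adjusted p = 0.0150) but rested on Jag1 ECWT 1, at 327 CPM there and 55.1, 75.8 and 7.56 CPM elsewhere, and stood at 0.60 without it (adjusted p = 0.787). *Nfkbia*, the inhibitor of NF-κB, fell by 0.97 ± 0.23 on the log2 scale (adjusted p = 0.00746), a call lost without Jag1 ECKO 1 (adjusted p = 0.0505) or Jag1 ECKO 2 (adjusted p = 0.0766). *Vcam1* (-0.27) and *Icam1* (0.13), adhesion molecules of inflamed EC, were not called.

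**Figure D5:**
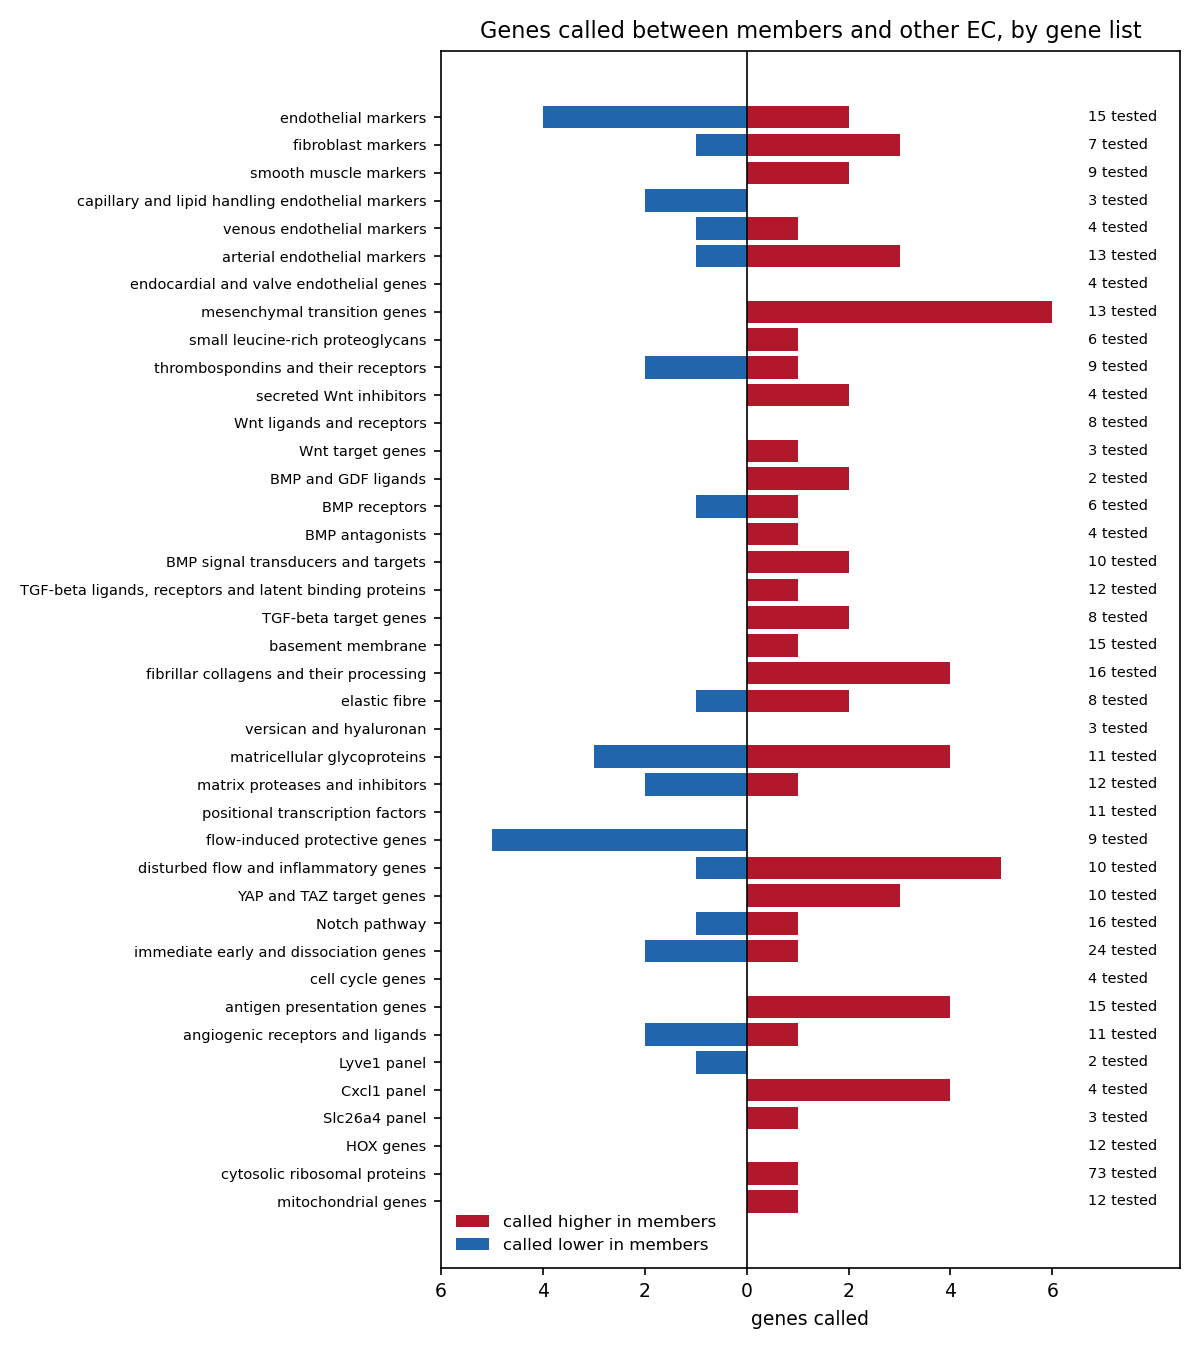
Number of genes called higher (right, red) and lower (left, blue) in panel-high EC at an adjusted p below 0.05, for each gene list with at least 2 genes tested; the number tested stands at the right. Mesenchymal transition genes have 6 called higher and flow-induced protective genes 5 called lower, each with none the opposite way.

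The genes with the largest falls had few counts in panel-high EC. *Igf2*, a growth factor named in the *Vcan* panel, was at 27.5, 33.7, 44.1 and 34.0 CPM against 342, 196, 303 and 199.9 CPM (-2.79 ± 0.26, adjusted p = 2.62e-10). *Stmn2*, a microtubule regulator best known from neurons, was at 18.4, 0, 35.3 and 30.3 CPM against 179, 199, 189.9 and 208 CPM (-3.09 ± 0.33, adjusted p = 3.64e-09). *Mal*, a protein of membrane sorting, had 1 count in panel-high EC and 214 in other EC (ratio of pooled CPM 0.0326, exact 95% counting interval 8.22e-04 to 0.184, adjusted p = 3.88e-05 by edgeR).
In no library did the panel-high level of these genes reach that of other EC. *Slc6a6*, the taurine transporter (4 counts, -3.23 ± 0.53), *Syt7*, a calcium sensor of exocytosis (-2.25 ± 0.32), *Kcnn4*, a calcium-activated potassium channel (-2.82 ± 0.47), *Fxyd6*, a regulator of the sodium pump (-2.33 ± 0.35), and *Atp2b2*, a calcium pump (-2.23 ± 0.49), were among the 15 largest falls, as were *Eltd1*, an adhesion receptor of EC (-2.32 ± 0.52), *Plek2* (-2.81 ± 0.61) and *Map1b*, which had 3 counts against 171. The call of *Plek2* was lost without Jag1 ECWT 2 (-2.80, adjusted p = 0.0595), and its value was -3.64 without Jag1 ECKO 2. DESeq2 did not call *Plek2*, *Eltd1* or *Map1b*. *Eltd1* also lost its call without *Dcn* in the score or without the library as a block. *Map1b* lost it without *Gdf6* in the score or with *Lum* and *Col1a1* both at 0. *Atp2b2* lost it without *Thbs1* in the score and in EC without the 8 markers.

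Between the genotype labels within panel-high EC, edgeR called 0 of 2085 genes (0%), with 76 at an unadjusted p below 0.05, and DESeq2 called 0, with 24 at an unadjusted p below 0.05. *Jag1* itself was higher under the Jag1 ECKO label by 2.66 ± 0.86 on the log2 scale (unadjusted p = 0.0134, adjusted p = 0.999 by edgeR). The difference between panel-high and other EC was tested for dependence on the label as an interaction, and 0 of 6504 genes were called (0%), with 246 at an unadjusted p below 0.05, while DESeq2 called 0, with 34. Of 263 genes called between panel-high and other EC, 180 could be tested between labels, and 7 of these had an unadjusted p below 0.05 (median absolute log2 difference 0.27). Without Jag1 ECKO 2 the label comparison within panel-high EC called 38 genes, and without Jag1 ECKO 1 it called 6. Each of these fits leaves 1 library under a label, takes its spread from the 2 libraries of the other label and assumes that the lone library varies alike.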

How the data were processed

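Cells sorted from mouse aorta were sequenced by SORT-seq, which puts a single cell in each well, and per the labels and the paper's methods the authors aligned reads to GRCm38 with STAR and counted transcripts by UMI. Seurat 3.1 is named in the submitters' processing notes. The deposited tables hold estimated counts of 18767 genes, which the authors corrected for UMIs drawn more than once from 4096 sequences: inverting that correction gave whole UMI numbers within 4.09e-12. For the gate, the score and the sums these estimated counts were rounded, which changed 0.0932% of counts. No doublet caller was run, and depth is given with the results.

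Counts were summed per library over panel-high and over other EC. Sums were tested with edgeR 4.0.16 (quasi-likelihood, TMM, filterByExpr, library as a term) in R 4.3.3, with Benjamini-Hochberg adjustment at 0.05, after the procedure was tested on simulated data. SE is the absolute log2 fold change divided by the square root of F and is approximate. Labels were compared within panel-high EC and as an interaction. The 2 sums of a library come from different cells of that library, so the pairing comes from the library itself. DESeq2 1.42.0 was an alternative, as were other gates, scores, numbers of cells, filters and omitted libraries. Shares of cells with a count were taken after thinning each cell to 2500 counts, which left out 3 panel-high and 29 other EC. Shares have Clopper-Pearson 95% intervals. Python 3.11.15 with numpy 2.4.6, pandas 2.3.3, scipy 1.17.1 and matplotlib 3.10.9 was used for the rest. Genes named are the panel and gate genes, the 15 largest and 15 smallest called fold changes with the same direction in all 4 libraries, genes of the lists and *Jag1*. The members and gene lists were chosen with earlier results of these data known.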

Additional observations from a re-analysis of the deposited data

Results flagged for a closer look

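Cells with 1200 genes or fewer were left out of the comparison, and some of them also carried the panel. Of 162 such cells that met the other marker limits, 14 (8.64%) had a score at or above the lowest panel-high EC, where a count of 0 would have allowed a share of up to 1.85%. Among the 790 EC compared, the share at or above that score was 11.4%. They were 3 of 69 in Jag1 ECKO 1, 4 of 36 in Jag1 ECKO 2, 1 of 23 in Jag1 ECWT 1 and 6 of 34 in Jag1 ECWT 2. Their depth was low, with a median of 1879.5 counts over the 162 cells, so that a score there rests on few counts of each gene.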

How the results depend on the processing

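The main counts of 133 genes higher and 130 lower in panel-high EC became 79 and 72 when cells were thinned before summing, where only 3075 genes were tested, 78 and 63 with DESeq2, 84 and 203 without a filter on low counts, and 73 and 77 in EC without a fibroblast or smooth muscle marker count, an alternative chosen after seeing the data. Without the replicate block, so that panel-high and other sums of a library were not paired, 64 and 59 genes were called, and 123 of the 263 calls remained. DESeq2 kept 141 of them. With *Dcn*, *Sfrp2*, *Thbs1* or *Gdf6* left out of the score, 195, 209, 179 and 233 of the 263 calls remained. Leaving out each library in turn gave 95 to 112 higher and 88 to 113 lower. Between labels within panel-high EC, 2 genes were called without a filter on low counts and 1 to 38 with a library left out. The interaction called 3 genes with 60 cells selected, 1 with *Dcn* left out of the score, 6 with *Lum* and *Col1a1* both at 0, 2 and 1 with limits of 1000 and 1500 genes, 5 without EC of high count, and 0 to 2 with a library left out. The share difference ran from -7.59 to -2.46 points with a library left out, and was 0.0261 when the same share was taken from each library, which fixes it by construction (also chosen after seeing the data). Where the construction does not show it, the cause was not tested. With *Dcn* left out of the score, *Cd74* turned to -0.11 (adjusted p = 0.886) and *Fos* to 0.079 (adjusted p = 0.978), by edgeR. Of the alternative values of single genes, 1793 kept their direction and call, 291 lost the call and 2 reversed. The 2 libraries per label limit every comparison between labels.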

Other observations

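Several further gene groups were measured in panel-high EC, with the same edgeR test. Antigen presentation genes were higher in 4 of 15 cases and lower in none. Of these, *H2-K1*, a class I molecule (0.44 ± 0.09, adjusted p = 0.00102), held without each library in turn, and *Cd74*, *H2-Ab1* and *H2-Eb1* did not. All 4 genes of the *Cxcl1* panel were called higher, and the calls of *Plxdc2* (1.45 ± 0.19, adjusted p = 3.10e-07) and *Cxcl12* held without each library in turn. *Cd74* was lower in Jag1 ECKO 1 and Jag1 ECWT 2 and *Cxcl1* was lower in Jag1 ECWT 2, and neither call held. Of the 90 panel-high EC, 30% were also among the 90 EC selected on that panel. Of 12 matrix protease and inhibitor genes, *Mmp2* was higher (0.66 ± 0.16, adjusted p = 0.00693) and tissue plasminogen activator (*Plat*, -1.92 ± 0.37, adjusted p = 4.54e-04) and *Adam15* (-1.25 ± 0.19, adjusted p = 1.21e-05) were lower. The calls of *Mmp2* and *Plat* were lost without Jag1 ECKO 1 (0.52, adjusted p = 0.1199) and without Jag1 ECWT 2 (-1.62, adjusted p = 0.0529), respectively.

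Of 12 TGF-β ligand, receptor and binding protein genes, *Ltbp3* was higher (0.75 ± 0.17, adjusted p = 0.00421), and of 8 TGF-β targets *Ctgf* and *Fn1* were. Of 8 elastic fibre genes, *Fbln5* and *Eln* were higher and *Mmrn2* was lower (-0.54 ± 0.11, adjusted p = 7.80e-04). *Eln*, at 0.46 ± 0.11, lost its call without Jag1 ECWT 1 (0.27, adjusted p = 0.227). Of 16 Notch pathway genes, *Rbpj* was higher (0.81 ± 0.24, adjusted p = 0.0448) and *Dll1* lower (-1.41 ± 0.35, adjusted p = 0.00895), and neither call held without each library. Of 15 basement membrane genes 1 was higher, and of 11 angiogenic genes 1 was higher and 2 lower. Venous markers had 1 of 4 higher and 1 lower, capillary markers 2 of 3 lower. The water channel gene *Aqp1*, of the *Lyve1* panel, was lower (-0.93 ± 0.16, adjusted p = 1.32e-04). Of 24 immediate early and dissociation genes 1 was higher and 2 lower, with no call that held without each library. None of 12 HOX genes, 4 cell cycle genes, 3 versican and hyaluronan genes, 1 pericyte marker or 1 lymphatic marker was called. The HOX genes tested had a median of -0.49, with 2 of 12 above 0. The whole HOX list summed to 376, 311, 530 and 533 CPM in panel-high EC against 632, 526, 751 and 581 CPM in other EC, which was not tested. Of 73 ribosomal protein genes and 12 mitochondrial genes, 1 each was higher (*Rplp0* and *mtCo1*), and neither call held without each library in turn.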
